A study of Mus musculus with 4 samples.

Results

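Calcium buffers and related calcium-binding proteins of the ear were followed as 8 genes, namely Calb1, Calb2, Pvalb, S100b, Cabp1, Cabp7, Caln1 and Necab2. They were taken by name from 24489 gene symbols on the arrays, and every probe that the array files assign to them was used, which gave 12 of 39429 probes. Calb1, Pvalb, Cabp1 and Caln1 had 2 probes each and the other genes had 1. The RNA came from the basal part of the organ of Corti, the hearing epithelium of the inner ear, of NMRI mouse embryos at E18.5 (embryonic day). Each of 4 dual-colour arrays compared a pool of Sox2(creERT2);Tbx2(fl/fl) embryos, called Sox2-Tbx2LOF, with a pool of control embryos of the same sex, whose genotype is given as Tbx2(fl/n.d.) and which carried no Cre according to the methods of the study. All dams, those of controls included, had received 4 mg tamoxifen at E16.5, which activates the CreERT2 recombinase expressed from the Sox2 locus. At that stage Sox2 is active in supporting cells and still in hair cells, so that both can recombine. Since only the Sox2-Tbx2LOF pools carried CreERT2, effects of Tbx2 loss and of the Cre allele at Sox2 cannot be told apart in the ratios. Arrays 1 and 2 held female pools and arrays 3 and 4 male pools. Sox2-Tbx2LOF RNA carried the green dye Cy3 on arrays 1 and 3 and the red dye Cy5 on arrays 2 and 4. There were thus 4 pools per genotype, and the arrays were made to find transcripts that require TBX2, a transcription factor of inner hair cells (IHCs) and their supporting cells.

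Calcium enters hair cells through the transduction channels at their tip and through voltage-gated channels at their synapses. Cytosolic proteins with EF-hands, helix-loop-helix domains that hold calcium in a short loop rich in acidic residues, take up part of this calcium. Calbindin (Calb1), calretinin (Calb2) and parvalbumin (Pvalb) are mobile buffers of this kind and also serve as markers of hair cells and spiral ganglion neurons. Calretinin is commonly used to mark IHCs. Other EF-hand proteins act mainly as sensors that pass the calcium signal on to channels and enzymes, among them S100B, the calmodulin-like CaBPs and calneuron, and NECABs.

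A pair of member probes carried a stretch whose letters match most of the EF-hand loop pattern, and they are shown because this ties the probe to the feature that the members share. Their 60 bases are shown 5′ to 3′ in the sense of the mRNA, as the array files give them, with the codons of the loop in capitals.
Calb2: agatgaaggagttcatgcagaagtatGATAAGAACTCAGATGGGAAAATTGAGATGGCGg
Cabp1: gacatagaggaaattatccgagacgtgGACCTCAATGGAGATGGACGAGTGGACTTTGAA
The Calb2 probe A_52_P556433 lies at chr8:112678555-112678614 on the minus strand of the mouse build mm9, and the Cabp1 probe A_55_P1960894 at chr5:115622769-115622828, also on the minus strand. The search used the 12 positions of the loop within the EF-hand pattern of PROSITE, not the whole pattern. Each probe holds the first 11 of these 12 in 1 reading frame of the given strand, which alone was searched. The 3′ end of the probe cuts off the last of them. Of all 39429 probes, 24 (0.0609%) had a full loop or one cut short in this way. A match describes the letters only. The other 10 member probes held no such stretch.

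None of the members was called changed. Of the 12 probes, 11 probes of 7 genes were well above background and could be tested, and 0 of these 11 had a limma adjusted p under 0.05 (Benjamini-Hochberg over 28104 tested probes), with or without a minimum fold. The rule for a call was an adjusted p under 0.05 and at least a 1.5-fold difference, which 70 probes or 0.249% of all tested probes met, and 0.982% met the adjusted p alone. At an unadjusted p under 0.05 stood 3 of the 11 probes, 1 each of Calb1, Caln1 and Necab2, against 7.11% of all tested probes. In these 3 the ratio was above 0, and 3.57% of all tested probes were above 0 at that p, which is 1004 of the 1999 probes at that p. SAM, the kind of test named in the methods of the study, run here with a threshold of its own (the smallest with an estimated false discovery rate of 0), called 0 member probes and 60 probes in all. The 95% confidence intervals of the log2 ratio lay within the 1.5-fold limits of ±0.585 for 11 of 11 member probes, as they did for 99.4% of all probes. The lowest bound was −0.15, at Cabp1, and the highest 0.37, at Necab2. These intervals refer to the RNA of whole pools, in which fewer cells of a type and less RNA per cell cannot be told apart.

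**Figure D1:**
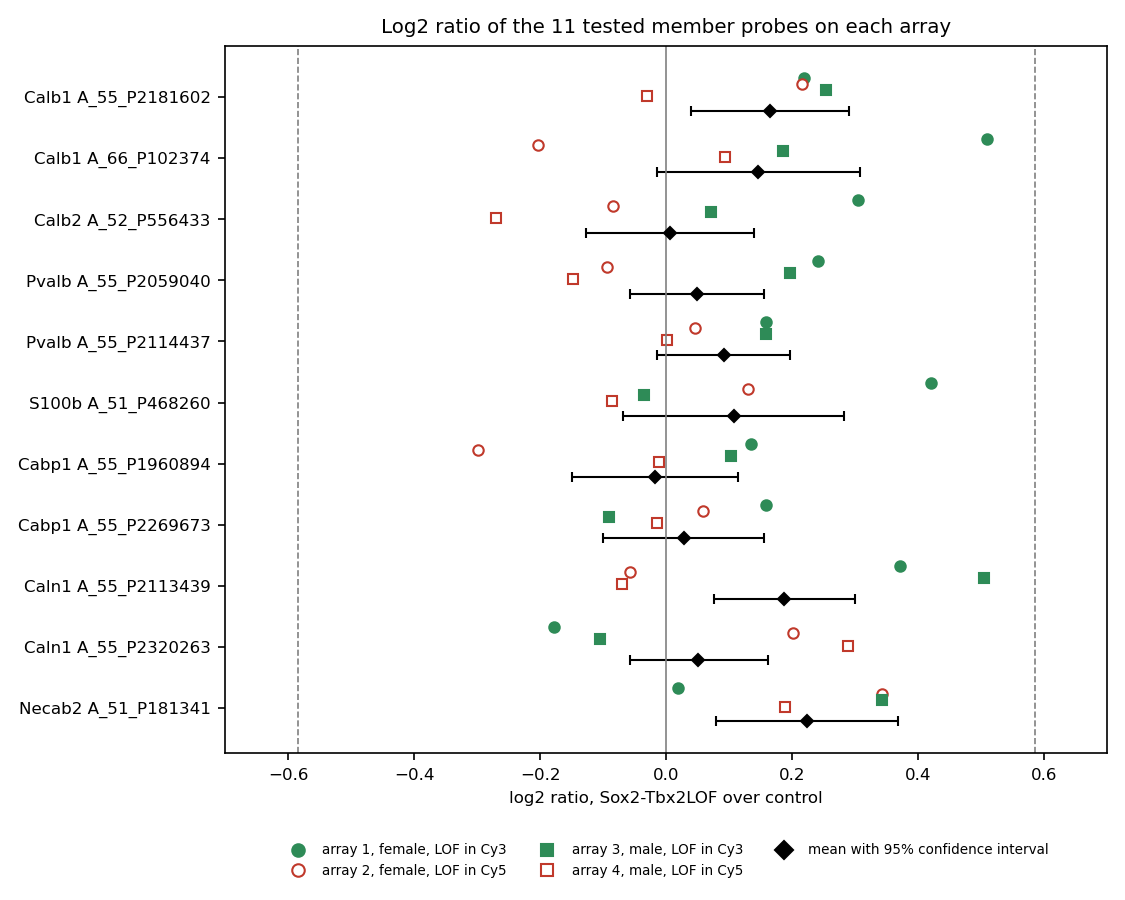
Log2 ratio of Sox2-Tbx2LOF over control for the 11 tested member probes (horizontal axis), with 1 symbol per array (circles female, squares male pools, filled green with Sox2-Tbx2LOF in Cy3, open red in Cy5), and the mean with its 95% confidence interval below (black). Dashed lines mark the 1.5-fold limits of ±0.585. All intervals lie inside these limits, and the interval of 1 Calb1 probe, 1 Caln1 probe and Necab2 lies above 0.

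Among the mobile buffers, Calb2 showed the mean ratio closest to 0. Levels are given here as log2 brightness of the channel after normalization. They cannot be compared between probes. Between pools of different dye they also contain any difference between the dyes at that probe, and each group holds pools in both dyes. In the Sox2-Tbx2LOF pools of arrays 1 to 4 the Calb2 probe stood at 9.04, 8.98, 9.19 and 8.90, and in the control pools at 8.74, 9.06, 9.12 and 9.17. The groups overlapped, with the Sox2-Tbx2LOF pool higher on arrays 1 and 3 and lower on arrays 2 and 4. The mean log2 ratio was 0.01 ± 0.24 (SD, n = 4), with a 95% confidence interval of −0.13 to 0.14, which corresponds to a fold of 0.915 to 1.10 (limma adjusted p 0.9998). By comparison, all 5 genes of an IHC marker list had a mean below 0 on the same arrays. Of these, 4 had a limma adjusted p under 0.05 and 3 were called lower. The list was chosen with earlier results of these data known and includes Tbx2, the floxed gene. Dnajc5b, also in it, was well above background on 4 arrays in control but only 2 in Sox2-Tbx2LOF. It was thus tested only through the group in which it is higher. Slc17a8, the vesicular glutamate transporter of IHCs, had log2 ratios of −0.49, −0.83, −0.49 and −0.83 at its brighter probe A_52_P163021 (limma adjusted p 0.000291). Its other probe had a mean of −0.12 (limma adjusted p 0.618). Whether Calb2 differs from these genes in its response was not tested.

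Calb1 had 2 probes in the distal part of its transcript, at bases 2592 and 4088. The probe A_55_P2181602 (mm9 chr4:15833582-15833641, plus strand) stood at 10.23, 10.28, 10.39 and 10.03 in the Sox2-Tbx2LOF pools and at 10.01, 10.07, 10.13 and 10.06 in the control pools. The Sox2-Tbx2LOF pool was higher on arrays 1 to 3 and lower on array 4, where it lay below all but 1 of the control pools. The log2 ratios were 0.22, 0.22, 0.25 and −0.03, with a mean of 0.16 ± 0.13 (SD, n = 4, limma p 0.0163, adjusted p 0.405). The other probe, A_66_P102374 (mm9 chr4:15835078-15835137, plus strand), had log2 ratios of 0.51, −0.20, 0.19 and 0.09. Their mean of 0.15 was close to that of the first probe, but their SD of 0.29 was more than 2 times as large, and the highest value came from array 1 (limma adjusted p 0.813). When 1 array was left out, this mean ranged from 0.07 (without array 1) to 0.23 (without array 3), and that of the first probe from 0.10 (without array 2, limma p 0.148, adjusted p 0.9999) to 0.23 (without array 4). Both probes were thus higher on 3 of 4 arrays, with the exception on a different array for each, and neither passed the test.

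Parvalbumin was covered by probes at bases 440 and 842 of its transcript, both on the minus strand of chromosome 15. At A_55_P2114437 (mm9 chr15:78021951-78022010) the levels were 14.12, 14.13, 14.37 and 14.27 in the Sox2-Tbx2LOF pools and 13.96, 14.08, 14.21 and 14.27 in the control pools. The groups overlapped, and in both of them arrays 1 and 2 gave lower levels than arrays 3 and 4. The log2 ratios of 0.16, 0.05, 0.16 and 0.00 had the smallest SD of all tested member probes, 0.08. All 4 were above 0, as for 1 further member probe and for 9.06% of all tested probes with 1 sign throughout. Their mean was 0.09, with a 95% confidence interval of −0.015 to 0.20 (limma p 0.0837, adjusted p 0.863). At A_55_P2059040 (mm9 chr15:78021549-78021608) the log2 ratios were 0.24, −0.09, 0.20 and −0.15, with a mean of 0.05 (limma adjusted p 0.9998). This probe changed its sign with the dye, as Calb2 did.

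S100b codes for a small homodimeric EF-hand protein known from supporting cells and glia. Its probe A_51_P468260 (mm9 chr10:75723783-75723842, plus strand, base 1379) stood at 14.95, 14.87, 14.93 and 14.94 in the Sox2-Tbx2LOF pools and at 14.53, 14.74, 14.97 and 15.03 in the control pools. The Sox2-Tbx2LOF pools differed by less than 0.1 among themselves, whereas the control pools ranged from 14.53 to 15.03, the female pools lying below and the male pools above them. The log2 ratios were accordingly 0.42 and 0.13 in females and −0.04 and −0.09 in males. Their mean was 0.11 ± 0.23 (SD, n = 4, limma adjusted p 0.9998), and 6.96% of all tested probes split in this way between the sexes. The sex term of the limma fit had an unadjusted p of 0.0211, and 2.01% of all tested probes had an unadjusted p under 0.05 for this term, but its adjusted p was 0.9998.

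The CaBPs are calmodulin-like regulators of voltage-gated calcium channels. At the Cabp1 probe shown above, A_55_P1960894, the levels were 9.03, 8.64, 8.84 and 8.78 in the Sox2-Tbx2LOF pools and 8.89, 8.94, 8.73 and 8.79 in the control pools. The groups overlapped, and array 2 had the lowest Sox2-Tbx2LOF and the highest control level, with a log2 ratio of −0.30. The mean log2 ratio was −0.02 ± 0.20 (SD, n = 4, limma adjusted p 0.9998). The second probe, A_55_P2269673 (mm9 chr5:115630801-115630860, minus strand, base 230), was dimmer, with log2 ratios of 0.16, 0.06, −0.09 and −0.01 and a mean of 0.03. For dim probes the offset of the background correction pulls ratios towards 0.

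Cabp7, the relative also known as calneuron 2, was the only member that could not be tested. None of the spots of its probe A_55_P2033225 (mm9 chr11:4639176-4639235, minus strand, base 462) was well above background in either group on any of the 4 arrays. Measured levels were 6.09 to 6.13 in the Sox2-Tbx2LOF pools and 6.08 to 6.14 in the control pools, which overlapped. No fold is given, since both groups were below the signal at which spots count as measured.

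Caln1, which codes for calneuron 1, a membrane-anchored EF-hand protein of neurons, had the lowest p of the members and at the same time the dye term with the lowest p among them. The levels at A_55_P2113439 (mm9 chr5:131315985-131316044, plus strand, base 2038) were 8.94, 8.89, 9.10 and 8.98 in the Sox2-Tbx2LOF pools and 8.57, 8.95, 8.59 and 9.05 in the control pools. The control pools thus fell into low values on arrays 1 and 3, where they were labelled with Cy5, and high values on arrays 2 and 4. The log2 ratios were 0.37, −0.06, 0.51 and −0.07, which gave means of 0.44 with Sox2-Tbx2LOF in Cy3 and −0.06 with Sox2-Tbx2LOF in Cy5. With the dye as a term the mean was 0.19, with a 95% confidence interval of 0.08 to 0.30 (limma p 0.00448, adjusted p 0.188), and without that term the limma p was 0.107. Higher values were seen on 2 of 4 arrays.

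The second Caln1 probe ran the opposite way. A_55_P2320263 (mm9 chr5:131321013-131321072, plus strand) belongs to a predicted transcript at base 7089 and contains an alternating CA run of 29 bases, which only 0.0888% of all probes match in length. It stood at 12.39, 12.71, 12.45 and 12.80 in the Sox2-Tbx2LOF pools and at 12.56, 12.51, 12.55 and 12.51 in the control pools. Its log2 ratios of −0.18, 0.20, −0.11 and 0.29 were below 0 with Sox2-Tbx2LOF in Cy3 and above 0 with Sox2-Tbx2LOF in Cy5. The mean was 0.05 (limma adjusted p 0.9998), so that the probes of Caln1 disagreed on every array. Of all tested probes, Pfkfb2 (r = 0.984), the unnamed probe A_55_P2028024 (r = 0.977) and Flrt3 (r = 0.975) had the levels most like those of the first Caln1 probe over the 8 channels, after the mean of either dye had been subtracted. This likeness was picked from 28104 probes and is a description only.

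The sign of the ratio alternated with the dye on all 4 arrays for 5 of the 11 tested member probes, namely those of Calb2, both of Caln1 and 1 each of Pvalb and Cabp1. This was the case for 31.7% of all tested probes. The dye term of the fit reached a limma adjusted p under 0.05 for 1 member probe, A_55_P2113439 of Caln1 (0.0371), and for 3.69% of all probes. At an unadjusted limma p under 0.05 it stood in 6 of the 11, against 23.4% of all probes. In 9 of 11 member probes the mean ratio was higher with Sox2-Tbx2LOF in Cy3, against 54.4% of all probes. Since dyes were swapped within either sex, each mean contains both orientations equally.

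**Figure D2:**
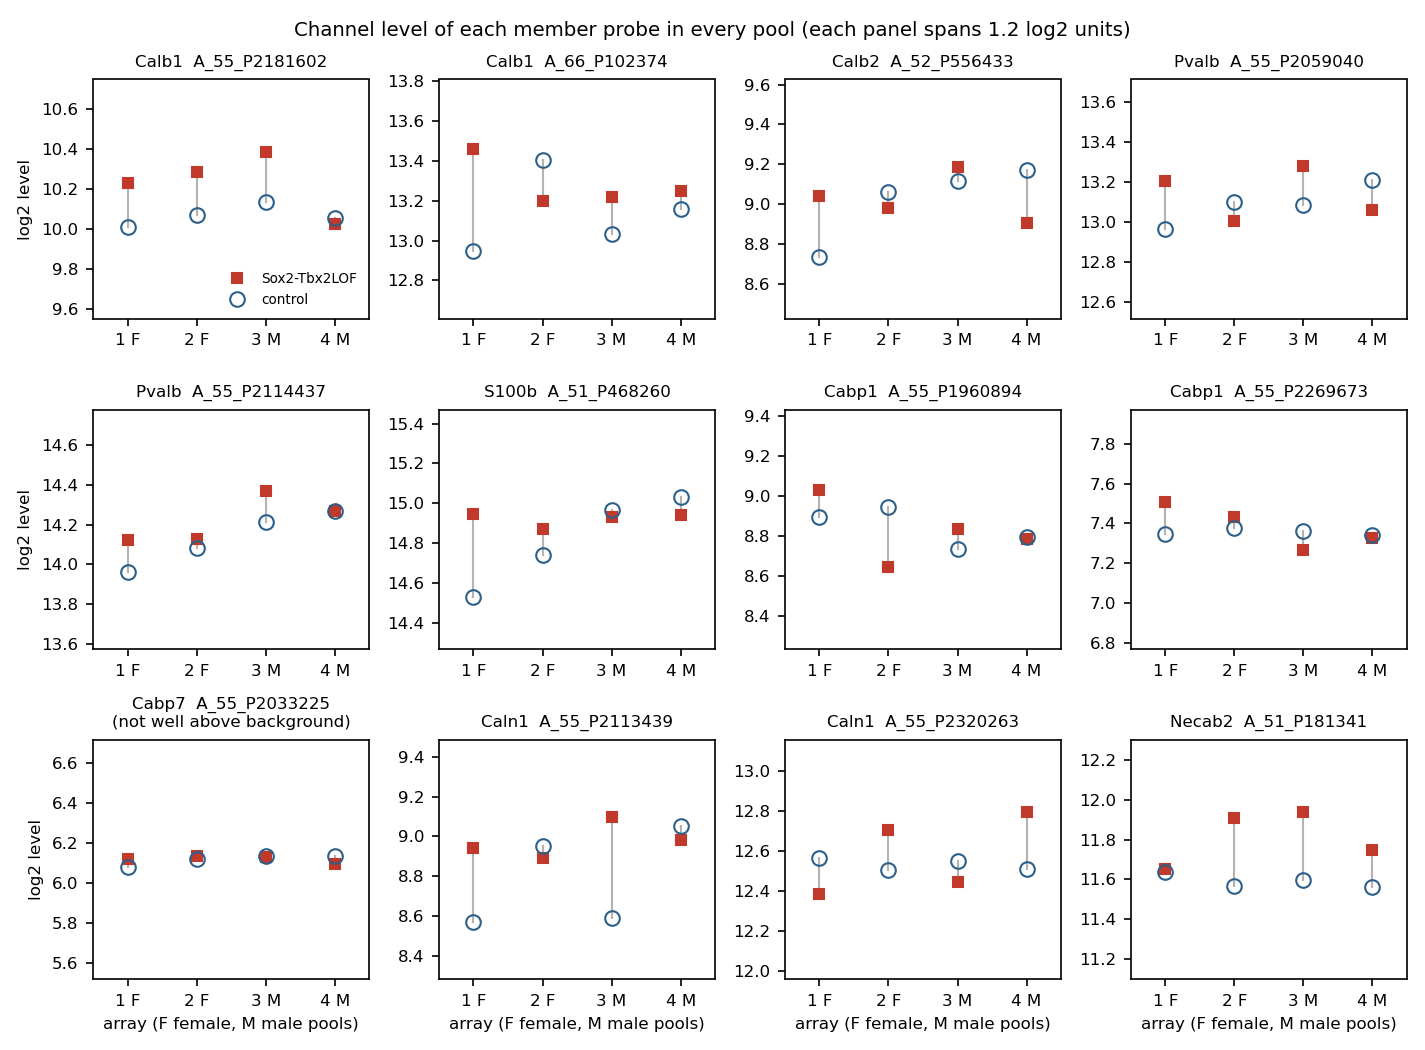
Log2 level (vertical axis, each panel spanning 1.2 units) of the 12 member probes in every pool by array, with Sox2-Tbx2LOF as filled squares, control as open circles and a line joining the pools of an array. Only the Necab2 panel shows all Sox2-Tbx2LOF pools (11.65 to 11.94) above all control pools (11.56 to 11.63), and Cabp7 (6.08 to 6.14) was not well above background.

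Necab2 was the only member whose groups did not overlap. NECABs are neuronal EF-hand proteins, and NECAB2 is known as a partner of G protein-coupled receptors. Its probe A_51_P181341 (mm9 chr8:121996394-121996453, plus strand, base 1829) stood at 11.65, 11.91, 11.94 and 11.75 in the Sox2-Tbx2LOF pools and at 11.63, 11.57, 11.60 and 11.56 in the control pools. All Sox2-Tbx2LOF pools lay above all control pools, although on array 1 by only 0.02. Such a separation was found for 1 of 11 member probes and for 2.54% of all tested probes. The mean log2 ratio of 0.22 ± 0.15 (SD, n = 4) was the highest of the members and corresponds to a fold of 1.17 (95% confidence interval 1.06 to 1.29), with higher values on 4 of 4 arrays. The limma p was 0.00711 and the adjusted p 0.249, so that Necab2 did not pass the test. The mean was 0.30 when array 1 was left out (limma adjusted p 0.109) and 0.14 when array 3 was left out (limma p 0.0569, adjusted p 0.725). The means were 0.18 in females and 0.27 in males, and 0.18 and 0.27 with Sox2-Tbx2LOF in Cy3 and Cy5, respectively.

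Over the 7 testable members, the median log2 ratio at the brightest probe was 0.09, with 6 genes above 0 and 1 below. Over all 18226 tested genes with a symbol the median was 0.00, with 9455 above and 8628 below 0. For Calb1, Caln1 and Cabp1 the brightest probe was not the one with the lower p, and the gene below 0 was Cabp1, whose other probe had a mean of 0.03.

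Among the calcium-binding genes outside the members, the close relatives of the CaBP, NECAB, parvalbumin and calbindin families differed most in range. Of 7 such genes, 5 could be tested and 1 was called lower. Cabp2, a CaBP of IHCs that sustains the opening of their calcium channels, had log2 ratios of −1.04, −1.21, −1.15 and −1.29 (limma adjusted p 1.06e-05). The spread among these arrays was far smaller than the decrease. The highest ratio of the group belonged to Ocm, which codes for oncomodulin, the parvalbumin of OHCs, with 0.47, 0.16, 0.19 and 0.23 and a mean of 0.26 (limma adjusted p 0.0999), higher on 4 of 4 arrays but short of the threshold. Its other probe was not well above background on any array. Necab1 had a mean log2 ratio of 0.07, Necab3 of −0.05 and Cabp5 of 0.05, while Cabp4 and Scgn were too dim to be tested. The Cabp5 value comes from a bright probe, and the other Cabp5 probe was not well above background on any array. The Cabp2 ratio lay below those of Cabp1 on each array, and the difference between the genes was not tested.

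None of the 14 other S100 genes passed the test in either direction. Their median log2 ratio was −0.03, with 5 above and 9 below 0, and 6 had an unadjusted limma p under 0.05 at their brightest probe, against 7.11% of all probes. S100a4, a protein of motile and mesenchymal cells, had the lowest mean, −0.36 (limma adjusted p 0.0826), and S100g, calbindin-D9k, the highest, 0.18 (limma adjusted p 0.189). S100b itself, with 0.11, lay between them.

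Of 5 tested calmodulin genes, 1 had a probe past the adjusted p. The Calml3 probe A_51_P137709 had log2 ratios of 0.39, 0.30, 0.41 and 0.19, with a mean of 0.32 (limma adjusted p 0.0187), below the 1.5-fold limit. It was well above background on 4 of 4 arrays in Sox2-Tbx2LOF but on only 2 in control, so it was tested only through the group in which it is higher. The brighter Calml3 probe A_55_P2083317 alternated with the dye and had a mean of 0.12 (limma adjusted p 0.591). The lowest mean of the group was −0.004, at Calm3 (limma adjusted p 0.9998), and Calm4 was too dim.

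Neuronal calcium sensors, other small EF-hand proteins, calcium-binding proteins of the endoplasmic reticulum and the pumps and exchangers that remove calcium from the cytosol gave 0 genes past the adjusted p among 12, 10, 10 and 12 tested genes. Their median log2 ratios were 0.00, 0.04, 0.01 and 0.04. At an unadjusted limma p under 0.05 stood 1, 4, 1 and 2 of these genes at their brightest probe, against 7.11% of all tested probes. The extremes were Vsnl1 (0.19) and Kcnip3 (−0.09), Chp2 (0.21) and Cib3 (−0.15), Casq2 (0.19) and Canx (−0.03), and Atp2b3 (0.26) and Atp2a3 (−0.14), each with a limma adjusted p above the threshold. Atp2b3 codes for a plasma membrane calcium pump. Its second probe had a mean of 0.05 and changed its sign with the dye, and the difference between its probes was not tested.

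**Figure D3:**
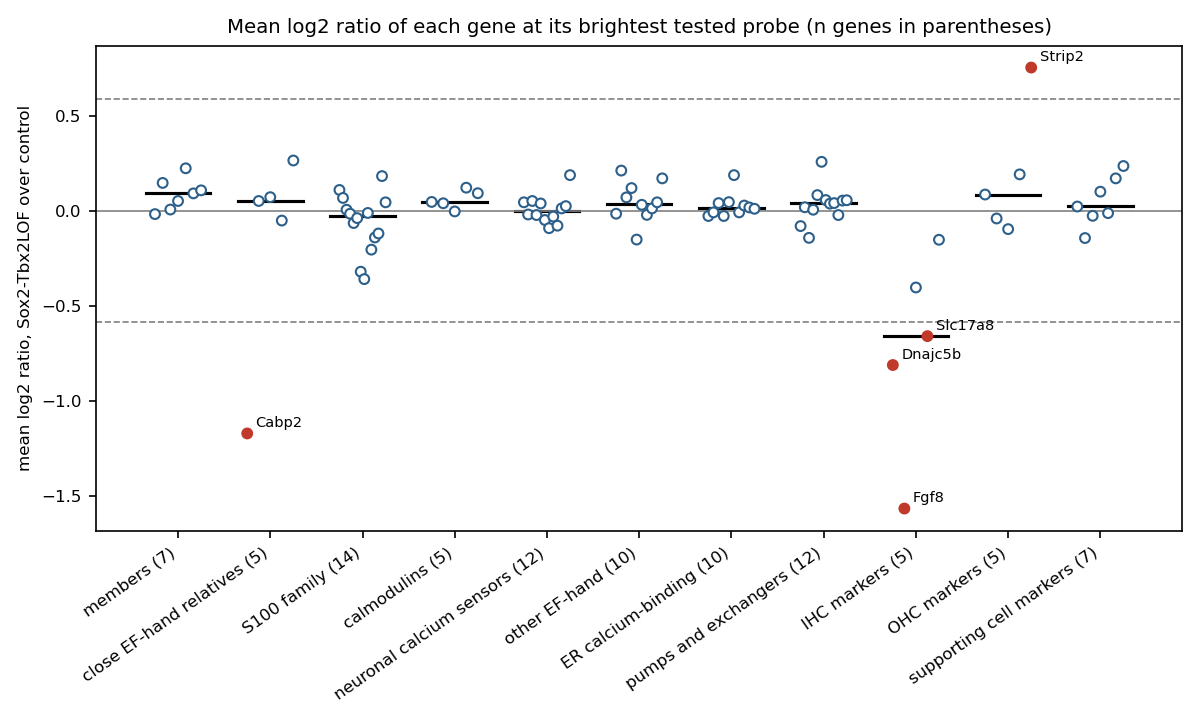
Mean log2 ratio of Sox2-Tbx2LOF over control (vertical axis) of every tested gene at its brightest probe, by gene list with the number of genes in parentheses. Filled red points are called genes, black bars list medians and dashed lines the 1.5-fold limits. The 7 members lie between −0.02 and 0.22, whereas Cabp2 (−1.17) and 3 IHC markers lie below the lower limit and Strip2 (0.75) above the upper one.

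The tissue was checked against markers of the cells in which the members are known. Hair cells were present, since all 6 general hair cell markers were well above background, and none of them passed the test. The IHC list was lower, with 4 of 5 genes past the adjusted p in this direction and 3 of them called. These were Fgf8 (−1.57), Dnajc5b (−0.81) and Slc17a8 (−0.66), while Otof had −0.40 (limma adjusted p 0.01). The list was chosen with earlier results of these data known. It leaves out the members Calb2 and Pvalb, which the study also stained as IHC markers. Calb2 had a mean of 0.01 (limma adjusted p 0.9998), and Pvalb 0.09 and 0.05 at its probes. Dnajc5b was well above background on 4 of 4 arrays in control but on only 2 in Sox2-Tbx2LOF, so it was tested only through the group in which it is higher. The summed log2 level of the 5 IHC markers was at most 14.30 in the Sox2-Tbx2LOF pools and 14.32 to 14.55 in the control pools. The groups thus did not overlap, but only narrowly. Such a sum weighs the brightest probes most, here those of Tbx2 and Otof, neither of which was called. Tbx2, the gene floxed in Sox2-Tbx2LOF, had log2 ratios of −0.06, −0.24, −0.02 and −0.30 (limma adjusted p 0.313), and whether its probe lies in the deleted part was not determined. Of the 5 tested OHC markers 3 had a mean above 0 and 2 below at the brightest probe. Only 1, Strip2, was called higher, with a mean of 0.75. Its other probe had a mean of 0.12 (limma adjusted p 0.6255). That probe was well above background on 4 arrays in Sox2-Tbx2LOF but on only 2 in control. The OHC motor gene Slc26a5 was not well above background. The summed OHC level was 13.60 to 13.81 in the Sox2-Tbx2LOF and 13.49 to 13.55 in the control pools.

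Calb1, Calb2, Pvalb, Cabp1 and Caln1 are also known from neurons and S100b from glia, so markers of these cells matter for a bulk level. The 8 neuron and the 7 glia markers were all testable and 0 passed the adjusted p, although the dissection removed the spiral ganglion according to the methods of the study. Summed neuron markers stood at 17.08 to 17.15 in the Sox2-Tbx2LOF and 17.04 to 17.11 in the control pools, and summed glia markers at 17.41 to 17.51 and 17.36 to 17.59. Both ranges overlapped, as did those of the 7 supporting cell markers (17.02 to 17.07 and 17.01 to 17.11). Mesenchyme markers were at 18.37 to 18.53 in the Sox2-Tbx2LOF and 18.12 to 18.41 in the control pools, with 6 of 7 ratios above 0 and 0 past the adjusted p. The summed levels of blood markers (17.04 to 17.48 and 17.09 to 17.47) and muscle markers (9.41 to 9.58 and 9.46 to 9.77) overlapped too, and the muscle marker Ckm was not well above background. How much these cells contribute to the member levels was not tested.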

How the data were processed

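Total RNA of E18.5 organs of Corti (4 pools per genotype, each of several embryos) was labelled and hybridised by the authors to 4 dual-colour Agilent arrays on 1 slide, scanned once. The deposited scanner files, made by the authors with Agilent Feature Extraction 10.7.3.1 per the submitters' processing notes, hold the intensity of each spot and of its local background (linear, not normalized) and a background- and dye-corrected log10 ratio of red over green. The deposited series matrix holds a signed fold change per array whose making is not given in the sources used here. Read as Sox2-Tbx2LOF over control, it correlated across probes at 0.903 to 0.926 with the log2 ratios computed here from the scanner intensities. Its scale was log2-transformed, and its columns have a median of 0.

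Intensity was background-corrected with normexp (offset 50) in limma 3.58.1 under R 4.3.3 and normalized by loess within each array, and the 4 spots of a probe were averaged after spots with an outlier flag (3.23% to 3.56%) and control spots had been left out. Channel levels were taken after quantile normalization of average brightness between arrays. A probe was tested when more than 0.5 of its spots were well above background on at least 3 of 4 arrays in 1 channel, which left 28104 of 39429 probes. No spot was saturated, median signals were 315 to 412 and median backgrounds 31 to 80, and the number of arrays limits the precision. Log2 ratios were fitted with limma with a term for the dye, two-sided, with Benjamini-Hochberg adjustment over all tested probes. Groups, dyes and sexes came from the labels. Symbols came from a RefSeq table (GRCm38.p6, 28328 probes matched) and otherwise from the files, and positions are those of the files on mm9.

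The members and gene lists were chosen with earlier results of these data known. Every member probe is named. Of the other lists, genes with a probe at an adjusted p under 0.05, the extremes of each related list and defining markers are named, and the 3 probes most like the member with the lowest p. The result of 1 marker gene is not reported here. Alternatives to background correction, normalization, filter, spot handling, test, dye term, pairing and replicates were run. The script was tested on simulated data. SAM was computed on the channel levels with all 70 regroupings and a delta of 0.9, the smallest with an estimated false discovery rate of 0, and not with the study's own delta and permutations.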

Additional observations from a re-analysis of the deposited data

Results flagged for a closer look

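The log2 ratio of the Calb1 probe A_55_P2181602 on array 4, −0.03, stood apart from the ratios on the other 3 arrays, 0.22 to 0.25. Its gap to the nearest of them was 0.869 of the whole range, above Dixon's 95% limit for 4 values. It was 1 of 36 sets of 4 values examined over the member probes, and chance alone gives such a gap in about 1 of 20 sets. The mean log2 ratio was 0.23 without array 4 (limma adjusted p 0.138) and 0.10 without array 2 (limma p 0.148, adjusted p 0.9999), against 0.16 on all arrays.

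S100b had ratios of opposite sign in the sexes, above 0 on both female arrays and below 0 on both male arrays, and its ratio was higher in females by 0.34 on the log2 scale. The sex term of the limma fit had a p of 0.0211 and an adjusted p of 0.9998, so the difference did not pass the test. The same pattern at the dim Cabp1 probe A_55_P2269673 had a difference of 0.16 (limma p 0.184, adjusted p 0.9998). Of the 11 tested member probes 2 showed opposite signs in the sexes, against 6.96% of all tested probes, and 0 of 28104 probes had an adjusted p under 0.05 for sex by limma, with 565 at an unadjusted p under 0.05.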

How the results depend on the processing

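No member probe was called under any of the 18 alternatives, and none of the 176 recomputed ratios of single member probes reached an adjusted p under 0.05 by limma, the lowest being 0.109 for Necab2. Of these, 167 kept their direction. The others were all close to 0, and the cause was not tested. Calb2 was −0.005 with the scanner log ratio, −0.012 with the series matrix and −0.011 with the median of spots. Cabp1 at A_55_P1960894 was 0.007 with median centring. Leaving out 1 array gave −0.053 to 0.064 for Calb2, −0.006 to 0.221 for S100b, −0.09 to 0.054 for Cabp1 at A_55_P1960894 and −0.035 to 0.09 for Cabp1 at A_55_P2269673. The ratio of Necab2 ranged from 0.14 to 0.30 and that of Caln1 at A_55_P2113439 from 0.15 to 0.22. The count of all called probes, 70, was 124 with the scanner log ratio, 1 with the series matrix and 276 with no minimum fold, and 66 to 106 on leaving out 1 array, the highest without array 1. With no replicate block, an unpaired limma fit of the 8 channel levels, it was 57. Related calcium genes called, 1, were 2 with the scanner log ratio (Cabp2 and Calml3) and 0 with the series matrix, alternatives chosen after seeing the data. The sex term gave 0 member probes in each of 5 alternatives chosen likewise. A single probe stands for 4 of the 8 genes, and Cabp7 was not well above background, so nothing can be said of its level.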
